A study of Mus musculus with 6 samples.

Results

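The tubulin isotypes described here are 10 genes of the deposited table, 6 that encode β-tubulins (Tubb2a, Tubb2b, Tubb3, Tubb4b, Tubb5 and Tubb6) and 4 that encode α-tubulins (Tuba1a, Tuba1b, Tuba1c and Tuba4a). They were found by symbol among the 21397 genes of the table, and all 10 are present. The family was chosen on the contrast reported below, because Tubb2b was among the largest rises with MMK-1, so its levels and differences are given as a description without p-values. Small intestinal organoids were grown from crypts of Fpr2 f/f mice, whose receptor gene is floxed, and no Cre is named for them. MMK-1 is a synthetic peptide agonist of formyl peptide receptor 2 (FPR2), a G protein-coupled receptor of the intestinal epithelium, and the comparison asks which transcripts differ after the receptor is activated. The 3 MMK-1 libraries came from Fpr2 f/f organoids kept for 5 days with the peptide at 1 μmol/L, and the 3 control libraries from Fpr2 f/f organoids given 0.1% DMSO, the vehicle. The treatment field of the MMK-1 samples reads 1 mM, whereas the protocol gives the micromolar dose. The study used mice 8 to 12 weeks old and states that each sample held organoids of 3 mice. The spread between libraries is therefore not that between single animals, and whether the pools were separate is not stated.

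Depth was even across the 6 libraries, from 35512739 to 37537463 fragments in total, as recovered from the FPKM values (fragments scaled by gene length and by library total). MMK-1 replicate 3 stood apart from its group. Over 13155 to 13309 genes the chi-square per degree of freedom was 3.57 between MMK-1 replicates 1 and 2, but 36.6 and 31.3 between replicate 3 and each of them, against 2.84 to 4.97 among the controls. Counts of called genes in the isotypes and the microtubule lists are therefore also given without that library where they differ.

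Microtubules are polymers of α- and β-tubulin heterodimers, and mammals carry several genes, called isotypes, for each subunit. The proteins are very similar along their body and differ mostly in the acidic tail at the C-terminus, which projects from the microtubule surface and carries most of the reversible modifications. Dividing epithelial cells build a spindle from these dimers, and columnar enterocytes arrange noncentrosomal microtubules along their apical-basal axis. Tubulin mRNA is also regulated by the amount of free dimer, since ribosomes that begin a tubulin chain can be recognised by the factor TTC5, which leads to decay of the message.

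All loci are given on GRCm38 with the GENCODE vM21 annotation, and all 10 genes have 4 exons in the transcript used. Tubb2b lies on the minus strand at chr13:34126748-34130466, next to its close relative Tubb2a at chr13:34074274-34078007 on the same strand. Tubb5 lies on the minus strand at chr17:35833921-35838306, Tubb4b on the minus strand at chr2:25222160-25224702, and Tubb3 on the plus strand at chr8:123411424-123422015. The Tuba1 genes are neighbours on chromosome 15, with Tuba1b at chr15:98931425-98934565 and Tuba1a at chr15:98949837-98953703 on the minus strand, and Tuba1c at chr15:99029891-99038110 on the plus strand. Tuba4a lies on the minus strand at chr1:75214228-75219865.

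The coding ends of the β isotypes with the highest levels are shown because they encode the tail in which isotypes differ most. Each line holds the last 60 coding bases with the stop codon, 5′ to 3′ on the coding strand, all within exon 4, and capitals mark bases that differ from Tubb2b in the alignment of the coding sequences. They lie at chr13:34127471-34127530 (Tubb2b), chr13:34074468-34074527 (Tubb2a), chr2:25222308-25222367 (Tubb4b) and chr17:35834982-35835041 (Tubb5).
Tubb2b: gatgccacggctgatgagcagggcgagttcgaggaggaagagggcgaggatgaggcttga
Tubb2a: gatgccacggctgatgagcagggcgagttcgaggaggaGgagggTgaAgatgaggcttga
Tubb4b: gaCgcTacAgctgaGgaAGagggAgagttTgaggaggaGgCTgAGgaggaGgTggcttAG
Tubb5: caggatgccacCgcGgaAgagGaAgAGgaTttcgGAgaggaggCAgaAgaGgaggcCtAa
The capitals number 3 in the Tubb2a line, 17 in that of Tubb4b and 16 in that of Tubb5. Read in frame, the 3 of Tubb2a change no amino acid, so this stretch encodes the same residues as in Tubb2b. The Tubb5 coding sequence is shorter, 1335 against 1338 bases, so its line starts a codon further upstream, and the gap in its alignment is not marked or counted.

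Likeness of the coding sequences bears on how well reads can be given to one isotype. Over the whole coding sequence Tubb2a and Tubb2b share 96.5% of 1338 aligned bases, with 47 differences, while every other β pair shares 80.3% to 85.9%. Tuba1a and Tuba1b share 98.3%, Tuba1b and Tuba1c 97.9%, and Tuba1a and Tuba1c 97.1%. Of all 150-base windows, the length of one read, 20.1% of the Tubb2b transcript and 27.9% of the Tubb2a transcript are also found in another annotated gene, in both cases each other and the pseudogene Tubb2a-ps2. Tubb5, Tubb3 and Tubb6 share none, and Tubb4b shares 16.8%, all with its pseudogene Tubb4b-ps1. Between 46.7% and 57.9% of the windows of Tuba1a, Tuba1b and Tuba1c are shared, with one another and with further gene models. How reads that match several genes were treated is not given in the sources used here, so the values of the 3 Tuba1 genes, Tubb2a, Tubb2b and Tubb4b are uncertain to that extent.

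**Figure D1:**
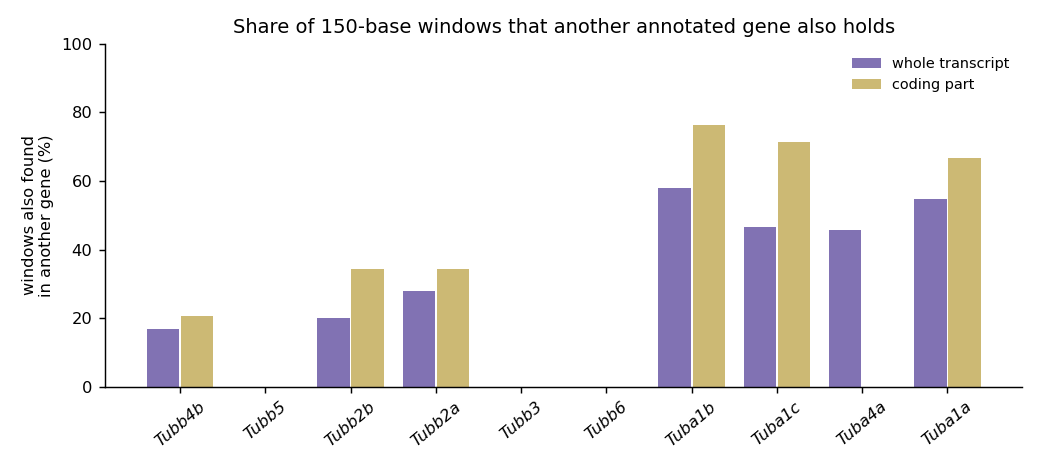
Share of all 150-base windows of each tubulin isotype that occur exactly in another annotated gene, in percent, for the whole transcript and for its coding part (one transcript per gene, GENCODE vM21). Tubb5, Tubb3 and Tubb6 have no such window, Tubb2b has 20.1% of its transcript, and the 3 Tuba1 genes have 46.7% to 57.9%; the 45.7% of Tuba4a lies outside its coding part.

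Several isotypes also overlap other genes. Tuba4a shares 1379 exonic bases with Stk16 on the opposite strand, which accounts for the 45.7% of its windows found elsewhere, none of them in its coding part. Tuba1a and Tuba1b share 473 and 426 exonic bases with the same-strand model Gm49450, and Tubb4b shares 121 with Fam166a on the opposite strand. Whether strand was used in counting is not given, so reads within the bases shared with Stk16 and Fam166a cannot be assigned here. For the same-strand Gm49450, strand would not separate them.

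Tubb2b stood out among the β isotypes. This isotype is best known from developing neurons, and changes in its human counterpart cause malformations of the cortex. Its FPKM was 2.07, 1.91 and 2.32 in control replicates 1, 2 and 3 and 37.6, 36.3 and 40.4 in MMK-1 replicates 1, 2 and 3. No library fell between the groups, and the lowest MMK-1 library was 15.6 times the highest control. These levels rest on 138 to 167 fragments in the controls and 2505 to 2886 with MMK-1. The mean was 2.10 ± 0.208 in controls and 38.1 ± 2.12 with MMK-1 (SD, n = 3), an 18.1-fold difference in FPKM. On the log2(FPKM + 1) scale of the fit the fold change was 3.66 with a standard error of 0.063, and a pseudocount of 1 understates it for a gene this low in controls. Recovered fragments gave a log2 fold change of 4.03 with a standard error of 0.11. By log2 fold change it ranked 2 among the 10551 genes that averaged 1 FPKM or more and were tested.

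Tubb5, the constitutive β isotype of dividing cells, was close to double. Its FPKM was 123, 122 and 126 in the controls and 248, 250 and 268 with MMK-1, again with a wide gap between the groups. The means were 124 ± 2.33 and 256 ± 10.9 (SD, n = 3), a 2.06-fold difference and a log2 fold change of 1.04 (SE 0.042). It shares no 150-base window with another gene, and it rests on 12103 to 26333 fragments per library. It ranked 307 among all genes tested.

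Tubb4b, a widely expressed isotype that also serves ciliary axonemes, was the most abundant tubulin in both groups and differed least among those whose groups did not overlap. Its FPKM was 345, 340 and 350 in the controls and 385, 382 and 413 with MMK-1. The lowest MMK-1 library was 1.09 times the highest control. Its log2 fold change was 0.19 (SE 0.042), a 1.14-fold difference.

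Tubb2a, the close relative of Tubb2b, showed no such difference. Its FPKM was 8.19, 9.002 and 7.76 in the controls and 8.94, 8.33 and 9.18 with MMK-1, and the groups overlapped. The log2 fold change was 0.077 (SE 0.062). Thus the ratio of Tubb2b to Tubb2a was 0.253, 0.212 and 0.2996 in the controls and 4.21, 4.35 and 4.403 with MMK-1, so that the less abundant of the pair in every control library was the more abundant in every MMK-1 library.

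Tubb3 and Tubb6 were close to the floor of detection and were not tested. Tubb3, the isotype used as a marker of neurons, had 23, 17 and 14 fragments in the controls and 11, 23 and 20 with MMK-1, or 0.215 to 0.353 and 0.178 to 0.368 FPKM. Tubb6 had 3, 2 and 0 fragments in the controls and 1, 5 and 5 with MMK-1, and a count of 0 allows up to 3 fragments. Both groups of Tubb3 overlapped, and no fold is given for Tubb6.

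Among the α isotypes, Tuba1b, the main α-tubulin of most cells, was the most abundant in every library. Its FPKM was 132, 132 and 143 in the controls and 186, 179 and 201 with MMK-1, with no overlap. The log2 fold change was 0.47 (SE 0.054), a 1.39-fold difference. Tuba1c, a widely expressed isotype, had 82.7, 77.4 and 80.4 FPKM in the controls and 101, 96.8 and 108 with MMK-1. Its groups did not overlap either, and its log2 fold change was 0.34 (SE 0.050).

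Tuba4a, whose gene does not encode the final tyrosine found in the Tuba1 products, had 24.5, 23.8 and 23.4 FPKM in the controls and 32.5, 31.6 and 35.8 with MMK-1. The groups were separate, and the log2 fold change was 0.46 (SE 0.053). Its antisense neighbour Stk16, a kinase gene, had 20.6 to 21.0 FPKM in the controls and 22.6 to 24.7 with MMK-1, a 1.14-fold difference against 1.39-fold for Tuba4a.

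Tuba1a, the main α isotype of young neurons, was the least even of the tested tubulins. Its FPKM was 2.90, 2.60 and 4.81 in the controls and 4.41, 7.16 and 6.55 with MMK-1. Control replicate 3 exceeded MMK-1 replicate 1, so the groups overlapped although the means were 3.44 ± 1.20 and 6.04 ± 1.44 (SD, n = 3). The log2 fold change was 0.68, but its standard error of 0.20 was the largest among the 8 tested isotypes, and leaving out 1 library moved it between 0.54 and 0.89.

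**Figure D2:**
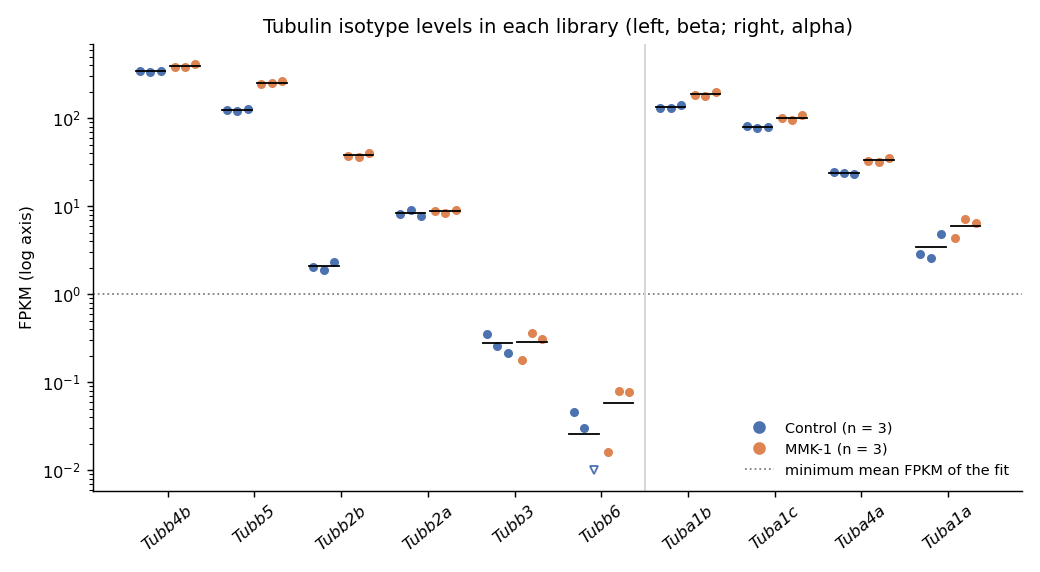
FPKM of the 10 tubulin isotypes on a log axis, with one point per library (3 controls and 3 MMK-1), black bars for group means and an open triangle at the foot of the axis for the library with 0 FPKM. Tubb2b lies at 1.91 to 2.32 FPKM in the controls and 36.3 to 40.4 with MMK-1, Tubb2a, Tuba1a, Tubb3 and Tubb6 overlapped between the groups, and the dotted line marks the minimum mean FPKM of 1.

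Of the 10 isotypes, 8 averaged 1 FPKM or more and entered the fit across all genes, and Tubb3 and Tubb6 did not. The limma-trend fit placed 7 of these 8 on the higher side and 0 on the lower side (adjusted p up to 0.05), with 0 lower at an unadjusted p under 0.05 and 0 by limma-voom. Tubb2a was the one not called. With no minimum FPKM 6 of 10 were called, and Tuba1a was then not among them (log2 fold change 0.68, SE 0.24). In the same fit 48.5% of all 10551 genes were called higher and 24.7% lower, and since the contrast helped choose the family nothing is read from its count. The groups did not overlap for 6 of the 8, all higher, beside 50.5% of all genes higher and 26.3% lower. By the threshold of the study, a fold of at least 2 with an unadjusted p of at most 0.05, Tubb2b and Tubb5 were higher, beside 3.39% of all genes. Tubb5 was under that fold after upper-quartile scaling (log2 fold change 0.96) and in limma-voom (0.89). Without MMK-1 replicate 3 the fit also called 7 of 8, although 7 of the 8 had their highest value in that library, as did 37.7% of all genes tested.

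Over the whole table the middle gene had a log2 fold change of 0.13 on the FPKM scale, 0.064 after upper-quartile scaling and 0.0014 in limma-voom on fragments with scaling by trimmed means, so a gene must be read against that shift. Of the calls over all genes 66.3% were higher on the FPKM scale and 49.1% in limma-voom. Relative to that median, Tubb2b stood 3.52 higher, Tubb5 0.90, Tuba1a 0.54, Tuba1b 0.34, Tuba4a 0.33 and Tuba1c 0.21. Tubb4b stood 0.053 above the median gene on the FPKM scale, 0.041 after upper-quartile scaling and 0.033 in limma-voom, where it was not called. Tubb2a stood below the median gene under all 3 scalings, at -0.057, -0.062 and -0.069, and its own log2 fold change was 0.077, 0.0029 and -0.068.

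**Figure D3:**
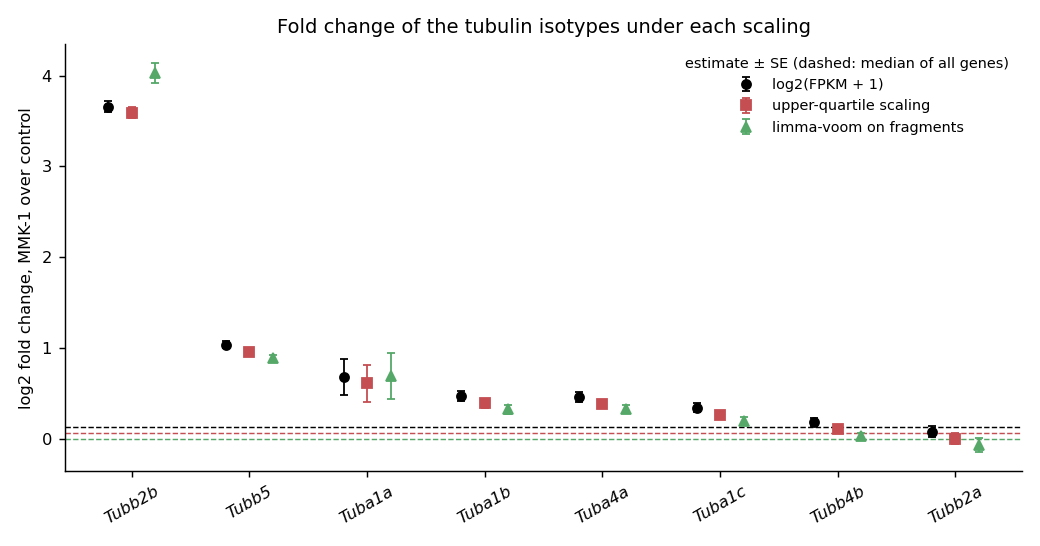
Log2 fold change (MMK-1 over control, 3 libraries each) with its standard error for the 8 tubulin isotypes that entered the fit, on log2(FPKM + 1), after upper-quartile scaling and in limma-voom on recovered fragments, with dashed lines at the median of all genes under each. Tubb2b (3.66, 3.59 and 4.03) and Tubb5 (1.04, 0.96 and 0.89) stand well above the medians, while Tubb4b and Tubb2a lie near them.

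These unequal differences changed the makeup of the β pool. Tubb4b made up 72.05%, 71.87% and 71.93% of the summed β FPKM in the controls and 56.6%, 56.4% and 56.5% with MMK-1. The share of Tubb5 was 25.7% to 26.0% in the controls and 36.5% to 36.9% with MMK-1, and that of Tubb2b was 0.404% to 0.477% and 5.35% to 5.53%. None of these 3 shares overlapped between the groups, and because they are ratios within a library they do not depend on how libraries were scaled. Tubb2a had a mean share of 1.73% ± 0.157 in the controls and 1.27% ± 0.0429 with MMK-1 (SD, n = 3), although its own level overlapped between the groups. In all, the summed β level was 480 ± 7.08 FPKM in the controls and 696 ± 29.99 with MMK-1, and Tubb5 made up 60.8% of that difference, Tubb4b 22.3% and Tubb2b 16.6%. The order of the other two depended on the scaling, a check added after the data were seen. With upper-quartile factors Tubb5 made up 66.1%, Tubb2b 19.1% and Tubb4b 14.8%, and with trimmed-mean factors 72.5%, 22.0% and 5.74%. Tubb5 was the largest contributor under all 3 scalings.

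The α isotypes kept their order among themselves. Their sum leaves out the α-like gene Tubal3. That gene had a mean of 25.6 FPKM in the controls and 11.6 with MMK-1, against 23.9 and 33.3 for Tuba4a. Tuba1b held 54.5% to 56.8% of the summed α FPKM in the controls and 57.0% to 57.4% with MMK-1, Tuba1c held 32.0% to 34.2% and 30.7% to 31.2%, and Tuba4a held 9.30% to 10.14% and 10.03% to 10.17%. The summed α level was 243 ± 7.54 and 330 ± 19.4 FPKM (SD, n = 3), and on the FPKM scale Tuba1b made up 61.1% of that difference. Summed β over summed α was 1.98, 2.00 and 1.94 in the controls and 2.10, 2.15 and 2.08 with MMK-1, without Tubal3. This was a small difference with no overlap, for transcripts only.

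**Figure D4:**
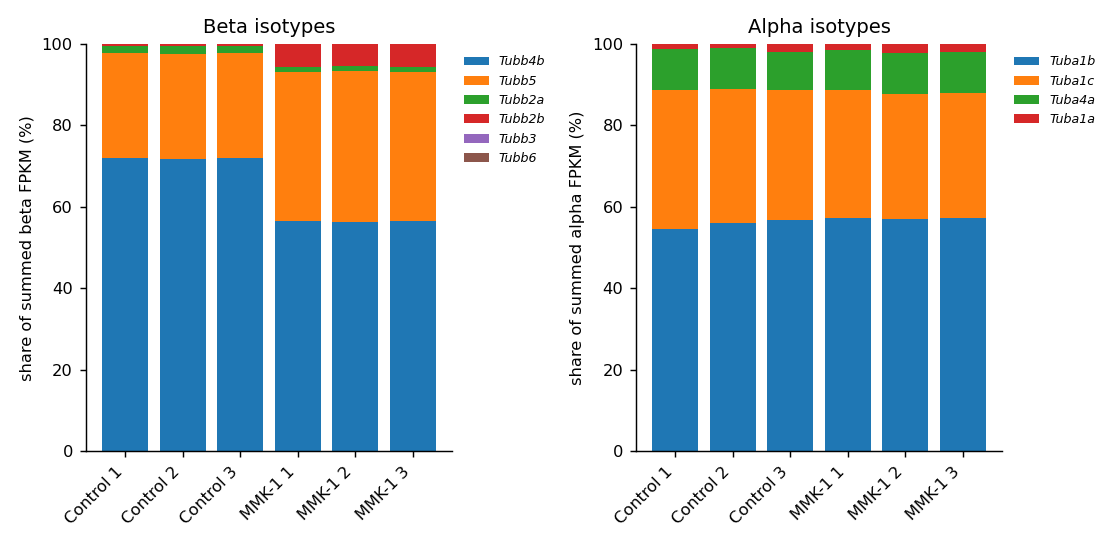
Share of each isotype in the summed FPKM of the 6 β-tubulin genes (left) and of the 4 α-tubulin genes (right), in percent, in each of the 3 control and 3 MMK-1 libraries. The β share of Tubb4b is 71.87% to 72.05% in controls and 56.4% to 56.6% with MMK-1, with larger shares for Tubb5 and Tubb2b, while Tuba1b holds 54.5% to 57.4% of the α sum in all 6 libraries.

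In order of level the controls ran Tubb4b, Tuba1b, Tubb5, Tuba1c, Tuba4a, Tubb2a, Tuba1a, Tubb2b, Tubb3 and Tubb6. With MMK-1 Tubb5 passed Tuba1b and took rank 2, and Tubb2b moved from rank 8 to rank 5, just above Tuba4a. No 2 neighbours in either order overlapped across their 3 libraries. The 5 genes whose log2(FPKM + 1) profile over the 6 libraries lay closest to that of Tubb2b, by Euclidean distance, were Cybrd1 (0.93), a ferric reductase of the brush border, Lgr5 (1.46), the R-spondin receptor that marks crypt stem cells, Marcksl1 (1.80), Cnn3 (1.88) and Acsf2 (2.23). Lgr5 had a mean of 2.03 FPKM in controls and 21.0 with MMK-1, and Cybrd1 had 1.75 and 27.1. With 3 libraries a group this distance depends mainly on the level in each group, and shared regulation was not tested.

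Among the other tubulin genes only Tubal3 and Tubg1 averaged 1 FPKM or more. Of the 10 looked for, Tuba3b was not analysed here. Tubal3, an α-like tubulin, fell from 25.6 ± 0.3001 to 11.6 ± 0.907 FPKM (SD, n = 3; log2 fold change -1.08, SE 0.056, adjusted p = 5.02e-07), so it differed in the opposite direction to the α isotypes above. Tubg1, the γ-tubulin that nucleates microtubules, rose from 8.99 ± 0.210 to 15.8 ± 0.997 FPKM (log2 fold change 0.75, SE 0.053, adjusted p = 3.33e-06). Both kept direction and call under every alternative that was run. Tubb4a, a β isotype of brain and myelinating cells, had 18, 12 and 17 fragments in the controls and 74, 59 and 62 with MMK-1, and although its mean FPKM of 0.540 kept it out of the fit, it was called higher when no minimum was set (adjusted p = 0.000318). Tube1, the ε-tubulin of centrioles, had 0.478 ± 0.00516 and 0.685 ± 0.0550 FPKM and was also called without a minimum (adjusted p = 0.00476). Tubd1, the δ-tubulin, had 1.03 and 0.963 FPKM and was not called in that fit (adjusted p = 0.463). Tubg2 had a mean of 0.0700 and 0.113 FPKM, Tuba8 had at most 5 fragments in any library, Tuba3a had 1 fragment in all, and Tubb1, the platelet isotype, was at 0 throughout.

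The genes that fold, modify and bind tubulin were counted in fixed lists. Each is read beside the 48.5% of all genes called higher and 24.7% called lower by limma-trend. Of the same 10551 genes limma-voom called 3725 higher and 3855 lower, and upper-quartile scaling 4395 and 3291. New tubulin chains are passed by the prefoldin complex to the chaperonin CCT and then joined into dimers by the cofactors Tbca to Tbce. Of 21 such genes, all tested, 12 were higher and 5 lower, and their median fold change was 0.22 on the log2 scale against 0.13 for all genes. Limma-voom on fragments called 7 higher and 8 lower, and upper-quartile scaling 12 and 6. The largest calls were Vbp1 (0.75, SE 0.23, adjusted p = 0.0158) and Pfdn4 (0.50, SE 0.10), both prefoldin subunits, and the chaperonin subunit Tcp1 (0.44, SE 0.049) on the higher side. Pfdn5 (-0.47), Tbcel (-0.47) and Tbcb (-0.38) were lower, with standard errors of 0.055, 0.051 and 0.072. Vbp1 had 37.5 and 35.4 FPKM in MMK-1 replicates 1 and 2 but 17.9 in replicate 3, close to the 16.3 to 17.1 of the controls. Its call was lost without MMK-1 replicate 1 (log2 fold change 0.57, adjusted p = 0.0524) or replicate 2 (0.61, adjusted p = 0.0551), in limma-voom (0.62, adjusted p = 0.0717) and with no minimum (0.75, adjusted p = 0.0786), while its log2 fold change without replicate 3 was 1.08.

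Of 4 genes that act in the decay of tubulin messages, all tested, 1 was higher and 1 lower. Ttc5, which recognises the nascent chain, had 7.51 ± 0.333 FPKM in controls and 7.07 ± 0.249 with MMK-1 (SD, n = 3; adjusted p = 0.202). Scaper, which links it to the deadenylase complex, fell from 2.45 to 1.66 FPKM (log2 fold change -0.38, SE 0.062, adjusted p = 0.000604). Cnot1, the scaffold of that complex, rose from 26.3 to 32.98 FPKM (0.31, SE 0.041, adjusted p = 0.000131), and Cnot11, its adaptor subunit, had 8.55 and 7.90 FPKM and did not pass (adjusted p = 0.114). With upper-quartile scaling or limma-voom 3 of these 4 genes were called lower, in place of 1. Over all 10551 genes those fits called 3291 and 3855 lower, in place of 2606.

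Of 25 tubulin-modifying enzymes measured, 12 were tested, of which 6 were higher and 4 lower, around a median of 0.075 on the log2 scale. Those that rose most were the glutamylase Ttll4, from 3.88 to 6.98 FPKM (0.71, SE 0.045), Svbp, the partner of the vasohibins that remove the last tyrosine of α-tubulin (0.47, SE 0.054), and the deacetylase Hdac6 (0.35, SE 0.059). Agtpbp1, which removes glutamate chains, fell from 1.89 to 0.583 FPKM (-0.87, SE 0.065), and the glycylases Ttll3 (-0.69, SE 0.072) and Ttll10 (-0.53, SE 0.077) fell too. Sirt2, also a deacetylase and the most abundant gene of the list, fell from 29.6 to 22.0 FPKM (-0.42, SE 0.050). Without MMK-1 replicate 3 the counts were 6 higher and 5 lower.

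Of 29 microtubule-binding genes 19 were tested, with 12 higher, 4 lower and a median of 0.29. The depolymerising kinesin Kif2c rose from 4.45 to 9.02 FPKM (0.88, SE 0.063), the minus-end binder Camsap1 from 2.34 to 3.94 (0.56, SE 0.050), and stathmin Stmn1, which binds free dimers, from 59.5 to 88.4 (0.56, SE 0.048). Mapre2, a plus-end binder, fell from 19.0 to 7.93 FPKM (-1.17, SE 0.042, adjusted p = 6.95e-08), followed by Map7 (-0.38, SE 0.040) and Mapre3 (-0.25, SE 0.065). Without MMK-1 replicate 3 this list had 13 higher and 4 lower.

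Of the 7 lists the spindle list had the largest share called higher. Of 20 motors and regulators, all tested, 19 were higher and 0 lower, around a median of 0.83 on the log2 scale. At an unadjusted p under 0.05 limma-trend gave 20 higher and 0 lower, and limma-voom called 19 higher and 0 lower. On the log2(FPKM + 1) scale Kif18a (1.02, SE 0.12), Kif11 (1.00, SE 0.041) and Kif20b (1.00, SE 0.070), kinesins of chromosome alignment, spindle bipolarity and cytokinesis, led it. By the ratio of mean FPKM, Cenpe (2.21) and Kif15 (2.14) stood above Kif11 (2.12). Kif18a had 4.08 and 3.96 FPKM in MMK-1 replicates 1 and 2 and 2.65 in replicate 3. Numa1, which organises spindle poles, was the one not called, with 16.4 and 17.9 FPKM (adjusted p = 0.0552). Of 11 genes of the γ-tubulin complex and its anchors 8 were higher and 0 lower by limma-trend, also 0 lower at an unadjusted p under 0.05, but limma-voom called 7 higher and 2 lower. Mzt1, a small subunit, led with 14.8 and 35.8 FPKM (1.16, SE 0.22, adjusted p = 0.00117), with 43.0 and 42.5 in MMK-1 replicates 1 and 2 and 22.0 in replicate 3. Nedd1 (0.42, SE 0.056) and Tubgcp4 (0.35, SE 0.049) followed on the log2(FPKM + 1) scale. By the ratio of mean FPKM, Cdk5rap2 (1.40) and Tubgcp6 (1.34) stood above Tubgcp4 (1.31). Without MMK-1 replicate 3 the complex had 8 higher and 1 lower, Mzt2.

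**Figure D5:**
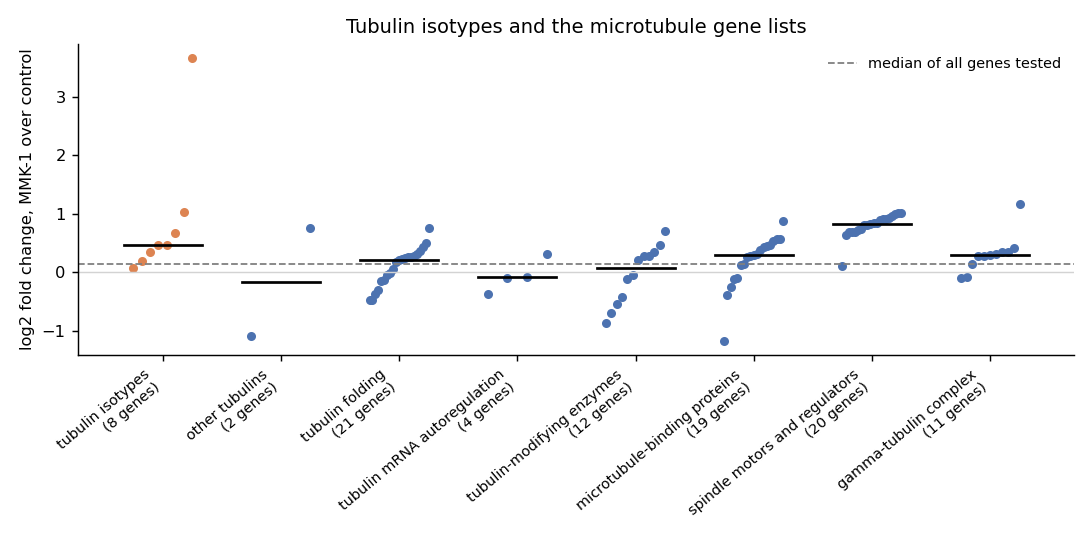
Log2 fold change (MMK-1 over control, limma-trend on log2(FPKM + 1), 3 libraries per group) of each tested gene, for the 8 tubulin isotypes and 7 lists of microtubule genes, with black bars for list medians and a dashed line at the median of all genes (0.13). The spindle genes sit at a median of 0.83, the folding genes at 0.22, and Tubb2b at 3.66 lies above every gene of the lists.

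Markers of intestinal epithelium ranged from 2362 FPKM for Fabp1 to at most 0.548 FPKM for the tuft cell markers, as means over the 6 libraries. Several of these lists differed between the groups. In bulk RNA a larger number of cells of a type and more RNA per cell cannot be told apart. All 5 proliferation markers were higher with MMK-1, with a summed level of 169 to 170 FPKM in the controls and 265 to 282 with MMK-1 and a median log2 fold change of 0.94. All 5 stem cell markers were higher too, from a summed 44.3 to 44.8 FPKM to 306 to 320, and all 4 Paneth cell markers, from 337 to 380 FPKM to 975 to 1070. Of 5 enterocyte markers 4 were lower and 1 higher (Fabp1, not called after upper-quartile scaling), with a summed 5893 to 5975 FPKM in the controls and 3934 to 4239 with MMK-1. Of 4 goblet cell markers 3 were higher and 1 lower (Muc2), at 910 to 970 and 1149 to 1250 FPKM. Of 7 enteroendocrine markers 4 of 5 tested were higher, at 148 to 161 and 179 to 196 FPKM. Some of these markers moved in the direction of the isotypes and others the opposite way. The part of these markers in the isotypes' levels was not tested. Tuft cell markers reached only 1.10 to 1.23 FPKM in sum in the controls and 1.65 to 1.87 with MMK-1, with none tested.

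Since Tubb2b, Tubb3, Tuba1a and Tubb4a are used in neurons, markers of other lineages were read beside them. The 7 neuron and glia markers summed to 0.555 to 0.753 FPKM in the controls and 0.675 to 0.771 with MMK-1, so the ranges overlapped, and the defining neuronal gene Elavl3 averaged 0.0104 and 0.00907 FPKM while the glial gene Sox10 averaged 0.00656 and 0.0170. Of the 6 mesenchymal markers only Vim reached the minimum, lower with MMK-1 at 4.83 and 3.94 FPKM (log2 fold change -0.25, SE 0.10, adjusted p = 0.0491), and the list summed to 4.70 to 5.15 and 3.37 to 4.89 FPKM. Endothelial Pecam1 had at most 0.226 FPKM and the 2 leukocyte markers at most 0.145 in sum.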

How the data were processed

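RNA from 6 organoid samples (3 control, 3 MMK-1) was sequenced by the study as 150-base read pairs. The authors deposited FPKM values per gene, and no further scaling is stated. The submitters' processing notes name HISAT2, HTSeq, DESeq2, R 3.2.0 and mm10, without roles. Whole fragments were recovered from the FPKM values for 100% of 21397 genes (tolerance 0.01 fragments), and 99.7% of each library total lay on listed genes. The 10551 genes that averaged 1 FPKM or more were tested by limma-trend (limma 3.58.1, R 4.3.3) on log2(FPKM + 1), MMK-1 against control, with no covariate and Benjamini-Hochberg adjustment. Fold changes are on the log2(FPKM + 1) scale, which understates those of low genes. Floors cover counting error only. The labels do not say whether the samples were separate cultures, so p-values measure the spread between these samples, which may be technical. Alternatives were upper-quartile scaling, no minimum or a minimum of 5 FPKM, a pseudocount of 0.1, the replicate number as a block, limma-voom on recovered fragments with trimmed-mean scaling, and leaving out each library. The steps were tested on simulated data. The members and lists were chosen with earlier results of these data known. Named were all isotypes and other tubulins, in each further list the 3 largest calls in each direction, and the 5 profiles nearest to Tubb2b. Any further gene, such as those that did not pass, was chosen after its values were seen. Sequences were read from GENCODE vM21 on GRCm38, which can differ from the authors' annotation, and protein sequences were not used here.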

Additional observations from a re-analysis of the deposited data

How the results depend on the processing

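Tubb2b had log2 fold changes of 4.12 with a pseudocount of 0.1 and 4.03 in limma-voom, and 3.61 to 3.71 when a library was left out. Tubb2a turned from 0.077 to -0.068 in limma-voom. With the replicate block the isotypes had 7 called higher and 0 lower, as without it, and Tubb2b a log2 fold change of 3.66, and no list count moved by over 1.5 times. The numbers did not pair the samples, since deviations of same-numbered libraries correlated at 0.025, -0.040 and 0.028. With no minimum 3 other tubulins were called higher, in place of 1. Limma-voom called 7 folding genes higher and 8 lower, in place of 12 and 5. Over all 10551 genes limma-voom called 3725 higher and 3855 lower and upper-quartile scaling 4395 and 3291, in place of 5118 and 2606. Of the autoregulation genes 3 were called lower with upper-quartile scaling and in limma-voom, and 0 with a minimum of 5 FPKM, where fewer genes were tested, in place of 1. That minimum left 2 modifying enzymes higher and 1 lower, 6 microtubule-binding genes higher and 3 γ-tubulin complex genes higher. In the γ-tubulin complex 2 genes were called lower with upper-quartile scaling and in limma-voom, Mzt2 and Tubgcp2, and 0 to 1 when a library was left out, the 1 being Tubgcp2 without control replicate 3 and Mzt2 without MMK-1 replicate 3. Under the minimum of 5 fewer genes were tested, and elsewhere the cause was not tested. In all, 82 isotype fold changes under the alternatives moved by less than the spread between replicates, 12 by more and 1 reversed. With 3 libraries a group, a missed threshold does not show that levels were equal, and the 11 to 23 fragments of Tubb3 and at most 5 of Tubb6 limit what could be seen for them.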
